A study of Homo sapiens with 2 samples.

Results

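The clustered core and linker histone genes were followed in HepG2 cells, an established human liver carcinoma cell line, in 1 array of cells given dimethyl sulfoxide (DMSO), the vehicle, and 1 array of cells given a hawk tea extract (HTE) for 24 h. Members were chosen by name, as the genes of the H1, H2A, H2B, H3 and H4 families whose symbols follow the cluster nomenclature (H1-1 to H1-6, and H2AC, H2BC, H3C or H4C with a number). Of 83 genes in the RefSeq gene table that follow this rule, 67 had a probe on the array (79 probes), among the 41127 genes and unnamed transcripts with a usable probe. The rule itself uses names and no measured value. The sample labels give 200 μg/mL HTE, whereas the name of the HTE file carries the number 300. The study's text names the higher of these doses for the arrays, so the label and the text differ. Each condition has 1 array of 1 cell line, so every value below is a single measurement, no test between the conditions was possible and the spread between cultures is unknown.

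Histones are the proteins around which nuclear DNA is wound. A nucleosome holds pairs of the core histones H2A, H2B, H3 and H4, and the linker histone H1 binds where the DNA enters and leaves it. The clustered genes are transcribed mainly in S phase, when new DNA must be packed, and most of their mRNAs end in a stem-loop bound by SLBP in place of a poly(A) tail, whereas histones made outside S phase (H2AZ1, H3-3A and others) come from single genes with ordinary mRNAs. Many H2A and H2B genes stand head to head with a short shared promoter between them. The arrays were labelled with a kit that primes from poly(A) tails, so what they report for stem-loop mRNAs can depend on how these were primed, which was not tested.

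Promoter sequences are shown first because they hold the letters that the families share and differ in. They are the RefSeq sequences of GRCh38.p14, read 5′ to 3′ toward the start of the named gene, all in the large histone cluster of chromosome 6. The array header names an older build, and no coordinate was carried between the builds. In the H2A and H2B sequences capitals mark the octamer, the binding motif of OCT1 (ATTTGCAT, or ATGCAAAT on the other strand), and CCAAT or ATTGG, the CCAAT box. In the H1 sequences they mark the H1 box (AAACACA or TGTGTTT) and the CCAAT box. H2BC9 and H2BC10 carry an octamer close to the start and H2BC13 carries none. The H2AC11 and H2AC8 sequences are the whole stretch between the starts of an H2A gene and its H2B neighbour (H2BC11 and H2BC8), shown for a pair of genes whose values differed in direction and for one whose values did not. H1-1 and H1-2 had the lowest and the highest ratio of their family.
H2BC9 (the 150 bases before its start, chr6:26251464-26251613, plus strand): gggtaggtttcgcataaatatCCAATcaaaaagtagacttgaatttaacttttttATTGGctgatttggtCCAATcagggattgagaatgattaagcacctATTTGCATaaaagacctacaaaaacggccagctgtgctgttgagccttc
H2BC10 (the 150 bases before its start, chr6:26272781-26272930, plus strand): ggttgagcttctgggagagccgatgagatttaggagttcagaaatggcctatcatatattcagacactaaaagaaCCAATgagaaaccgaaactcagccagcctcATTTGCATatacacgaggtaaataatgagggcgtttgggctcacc
H2BC13 (the 150 bases before its start, chr6:27807930-27808079, minus strand): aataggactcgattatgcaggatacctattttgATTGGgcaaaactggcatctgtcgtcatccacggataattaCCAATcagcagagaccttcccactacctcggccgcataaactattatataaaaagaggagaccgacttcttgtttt
H2AC11 (up to the start of H2BC11, chr6:27132796-27133042, plus strand): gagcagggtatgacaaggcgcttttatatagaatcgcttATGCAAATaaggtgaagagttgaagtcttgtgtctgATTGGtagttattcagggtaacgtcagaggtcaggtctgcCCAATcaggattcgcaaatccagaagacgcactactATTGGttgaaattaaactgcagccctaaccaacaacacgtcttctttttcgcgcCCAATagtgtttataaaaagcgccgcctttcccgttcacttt
H2AC8 (up to the start of H2BC8, chr6:26216689-26216920, plus strand): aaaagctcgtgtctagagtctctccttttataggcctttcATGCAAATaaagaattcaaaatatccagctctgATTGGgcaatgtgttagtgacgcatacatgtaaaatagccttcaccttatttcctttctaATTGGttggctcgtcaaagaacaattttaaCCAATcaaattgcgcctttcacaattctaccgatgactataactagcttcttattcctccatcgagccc
H1-1 (the 250 bases before its start, chr6:26017788-26018037, minus strand): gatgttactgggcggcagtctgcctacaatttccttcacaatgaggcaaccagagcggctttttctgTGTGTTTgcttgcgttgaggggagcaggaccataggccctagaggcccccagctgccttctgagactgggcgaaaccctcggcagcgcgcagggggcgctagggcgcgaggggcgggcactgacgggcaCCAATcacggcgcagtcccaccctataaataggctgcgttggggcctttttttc
H1-2 (the 150 bases before its start, chr6:26056471-26056620, minus strand): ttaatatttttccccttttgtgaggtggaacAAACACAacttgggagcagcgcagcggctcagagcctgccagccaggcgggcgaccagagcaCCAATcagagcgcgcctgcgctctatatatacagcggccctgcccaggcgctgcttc

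The promoter table gave 300 bases (250 before to 50 after the start) for 64 of the 83 genes, 61 of them members with a probe, and each motif was searched on both strands. The octamer was found in 14 of 18 H2B and 11 of 16 H2A promoters, in 1 of 11 H3 promoters (H3C4) and in none of 6 H1 and 13 H4 promoters, against 1.77% of all 35116 promoters in the table. In 11 head-to-head pairs the H2A and H2B promoters share most of their bases, so the same octamer can be counted in both families. The H1 box was in all 6 H1 promoters, in 1 H2A and 2 H3 promoters and in no H2B or H4 promoter, against 5.64% of all. CCAAT was in every H1, H2A, H2B and H3 promoter with a sequence and in 3 of 13 H4 promoters, against 34.6% of all. The letters TATAAA were in 3 of 6 H1, 12 of 16 H2A, 12 of 18 H2B, 8 of 11 H3 and 7 of 13 H4 promoters, against 4049 of all 35116. A match describes letters only and was not read as a bound site.

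Each array held 62976 spots, of which 60.6% of the spots that are not controls were well above background for DMSO and 56.6% for HTE, and no spot was saturated. The level of a gene is given as the processed signal of its brightest probe on each array, and the log2 ratio (HTE over DMSO) was formed after each array's 75th percentile had been subtracted (signals of 4020.0 and 3570.3). A gene above background on 1 array entered with a bound. Every member probe had 1 spot per array. The SD of the log2 ratio among replicate spots of other probes had a median of 0.051, and the error model of the scanner software gave 0.20 to 0.32 for the log2 ratio of a member above background on both arrays, and 0.56 to 1.47 for the 4 members above it on 1 array. All 8 hepatocyte markers measured (ALB, APOA1, TTR and others) were well above background on both arrays, with log2 ratios of −0.36 to 0.21. Of 5 markers of other cell types, PTPRC, PECAM1, VWF and COL1A1 were well above background on both arrays and COL3A1 on the DMSO array. Their levels in DMSO were all below the 75th percentile. The hepatocyte marker HNF4A was below it too, with a signal of 883 in DMSO beside 2351 for PTPRC. PECAM1 had a log2 ratio of −1.82, PTPRC one of 0.14, and VWF and COL1A1 one of −0.63 each. The 8 E1A spike-in probes were brighter on the HTE array, by 0.45 to 1.57 on the log2 scale, and directions below are relative to the 75th percentile unless stated.

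Of the 67 members with a probe, 64 were measured, 60 of them on both arrays and 4 (H2AC16, H2BC6, H2BC7 and H4C7) on the DMSO array only. H1-6 and H2BC1, both known as testis histones, and H4C16 were not above background on either array. The 16 genes without a probe were 12 pseudogenes and H2AC18, H3C14, H4C14 and H2BC12L. H2AC2P was the 1 pseudogene measured. Near-identical copies exist for several members (H2AC18 and H2AC19, H3C14 and H3C15, H4C14 and H4C15), and the files hold no probe sequences, so which copy a probe read is uncertain.

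The median of the clustered genes lay close to that of all genes, their spread was wider, and the family medians differed. H2AC1 was the 1 member that was 2-fold or more higher with HTE, as 5.25% of all 23752 genes and transcripts were, and H2AC20, H1-1 and H2AC11 were the 3 that were 2-fold or more lower, as 3.03% of all were. The log2 ratio was above 0 for 29 of 64 members, against 45.7% of all genes, and below 0 for 35, against 49.0%. The 4 members above background on the DMSO array only entered with bounds, which cannot exceed 0. Of the 60 above it on both arrays, 29 were above 0 and 31 below. The median was −0.034 (quartiles −0.44 and 0.32), against 0 for all genes (quartiles −0.28 and 0.27). By family the median was 0.35 for H2B (13 of 17 above 0), 0.17 for H2A (10 of 17), −0.051 for H1 (1 of 5), −0.10 for H3 (4 of 12) and −0.15 for H4 (1 of 13). Only the H2B median lay outside the quartiles of all genes. With arrays scaled to the E1A spike-in probes the median of all genes moved to −1.21 and every member was below 0, so the signs hold only relative to the other genes. Without scaling that median was −0.16, and the H2A median was −0.0013. Scaling to the median, to spike-ins or not at all moves every gene above background on both arrays by 1 constant. The H2B median relative to that of all genes, 0.35 here, was 0.34 under each. The median of all genes includes bounds set to 0, which need not move by that constant. With only genes above background on both arrays the median of all genes was −0.0049. Under normexp and quantile normalization 13 of 17 H2B genes were above the median of all genes, and 12 (normexp) and 11 (quantile) of 13 H4 genes below it. Without the filter on dim probes the relative H2B median was 0.15, with 13 of 18 H2B genes above and 14 of 14 H4 genes below. When dim probes kept their own value 10 of 13 H4 genes were below.

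**Figure D1:**
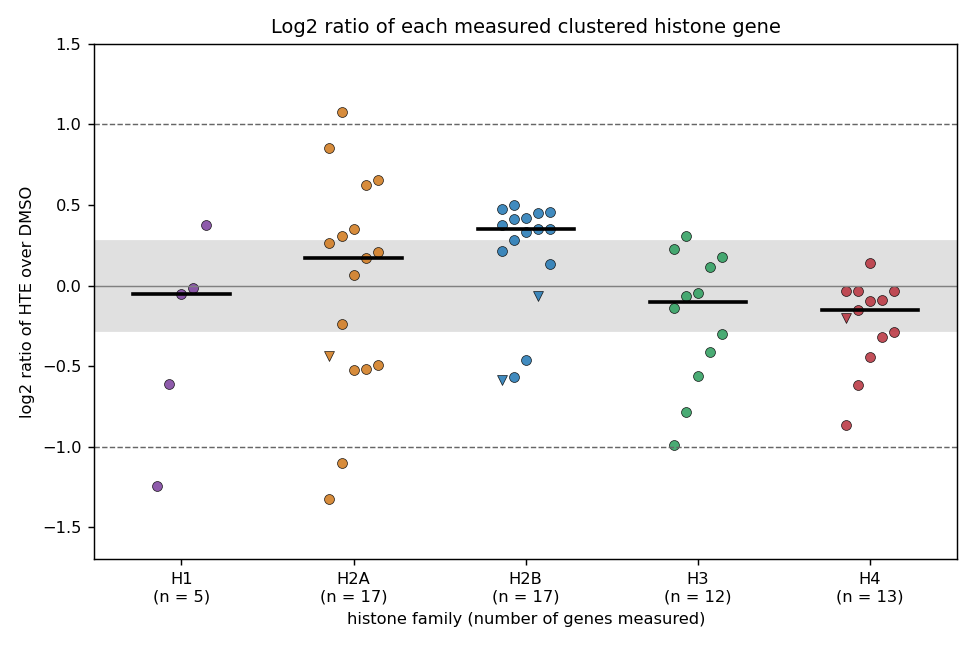
Log2 ratio of HTE over DMSO (y axis) of each of the 64 measured members by family (x axis). Circles are genes above background on both arrays, triangles bounds, thick lines family medians, the grey band the quartiles of all genes and dashed lines a 2-fold difference. The H2B genes lie in a tight group between 0.13 and 0.50 with 4 below 0, and 12 of the 13 H4 genes lie below 0.

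The signal of the linker histone H1 genes, which help compact chromatin, differed in both directions. H1-1 had a signal of 313 in DMSO and 117 in HTE, a log2 ratio of −1.24. H1-5 had 743 and 432, a ratio of −0.61. These were the pair of H1 genes with signals below the 75th percentile on both arrays. H1-3 (20220 and 17339, ratio −0.051) and H1-4 (15296 and 13430, ratio −0.017) hardly differed once scaled. H1-2 had 18993 in DMSO and 21855 in HTE, a ratio of 0.37, the 1 H1 gene above 0. Under normexp background correction the ratio of H1-1 was −0.80, no longer 2-fold. Both H1-1 and H1-2 carry the H1 box and CCAAT box shown above.

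The H2A genes were the most spread family, from −1.32 to 1.08. H2AC20 had a signal of 10327 in DMSO and 3666 in HTE, a log2 ratio of −1.32, and it was the 1 member above the 75th percentile on both arrays to differ 2-fold. H2AC11 had 488 and 202, a ratio of −1.10, which was −0.61 under normexp. H2AC1, a testis-type H2A, had 1313 and 2466, a ratio of 1.08, which was 0.91 without scaling and −0.14 under spike-in scaling. These 3 values were the ends of the family, and no other H2A gene reached 2-fold by its brightest probe. H2AC19 followed with 0.85 (1047 and 1681), H2AC8 with 0.66 (13561 and 18967) and H2AC6 with 0.62 (11418 and 15600). H2AC7, H2AC21, H2AC25, H2AC17, H2AC15 and H2AC12 were between 0.067 and 0.35. H2AC14, with the brightest H2A probe, had 38412 and 28939, a ratio of −0.24, and H2AC13, H2AC4 and H2AC2P were between −0.52 and −0.49. H2AC16 (145 in DMSO, not well above background in HTE) was at least 1.36-fold lower.

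Among members with a mean level at or above the 75th percentile, the H2B genes were the most uniform. Over all measured genes the interquartile range was 0.28 for H2B and for H4. All 13 whose mean level was at or above the 75th percentile had a ratio above 0, from 0.13 (H2BC11, 7719 in DMSO and 7528 in HTE) to 0.50 (H2BC4, 8876 and 11151), with a median of 0.38, and none reached 2-fold. Between them lay H2BC18, H2BC3, H2BC10, H2BC9, H2BC12, H2BC8, H2BC17, H2BC14, H2BC5, H2BC15 and H2BC13. H2BC13, with the brightest H2B probe, had 26610 and 32888, a ratio of 0.48. The software's error was 0.20 for each of these 13 ratios, more than the 0.13 of H2BC11. They are single values and are given as a description. Among all genes at such levels 4363 of 9169 were above 0. The other 4 H2B genes were dimmer and below 0. H2BC26 (324 and 194) had a ratio of −0.57 and H2BC21 (1003 and 648) one of −0.46. H2BC7 (160 in DMSO) was at least 1.5-fold lower and H2BC6 (112 in DMSO) at least 1.05-fold lower, both not well above background in HTE. The median ratio was 0.33 for the 13 measured H2B genes with an octamer (10 above 0) and 0.45 for the 4 without one (3 above 0), and for the H2A genes it was 0.21 with an octamer and 0.22 without.

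**Figure D2:**
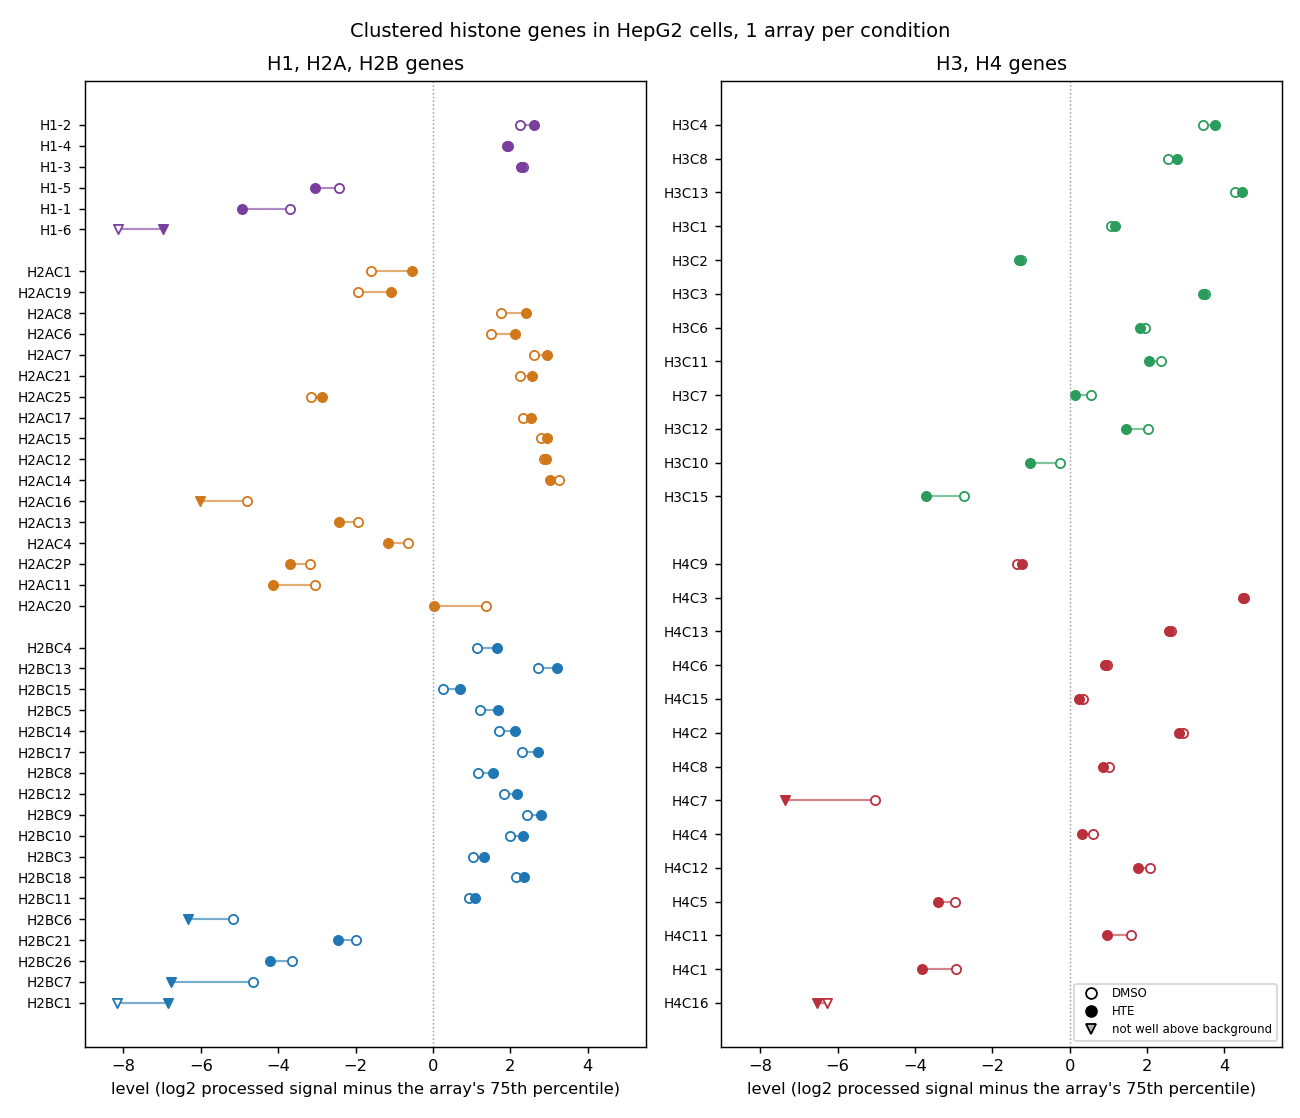
Level of each member on the DMSO array (open) and the HTE array (filled), as log2 processed signal minus the array's 75th percentile (x axis), by family and ordered by log2 ratio (y axis). Triangles are spots not well above background. In 13 of 17 measured H2B genes the filled point lies to the right, whereas in 12 of 13 measured H4 genes it lies to the left. Levels of different probes are not comparable.

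Among the H3 genes the ratio ran from −0.99 to 0.31 and no gene reached 2-fold. H3C15 had 611 in DMSO and 272 in HTE, a ratio of −0.99 that fell just short of the cutoff of 1. It was past the cutoff when the arrays were scaled to the median (−1.07), quantile normalized (−1.07) or left unscaled (−1.16). Under normexp it was further from the cutoff, at −0.82. H3C10 (3382 and 1746) had −0.78, H3C12 (16425 and 9883) −0.56, H3C7 −0.41 and H3C11 −0.30. H3C6, H3C3 and H3C2 were between −0.14 and −0.044. Above 0 were H3C4 (43778 and 48113, ratio 0.31), H3C8 with 0.23, H3C13, the brightest H3 probe (77993 and 78326, ratio 0.18), and H3C1 with 0.11.

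The H4 genes, most of which encode the same protein, were lower in 12 of 13 cases, by little. H4C1 had 521 in DMSO and 254 in HTE, a ratio of −0.86, and H4C11 had 12013 and 6947, a ratio of −0.62. H4C5, H4C12 and H4C4 followed with −0.45, −0.32 and −0.29. H4C8, H4C2, H4C15, H4C6 and H4C13 were between −0.15 and −0.033. H4C3, with the brightest H4 probe, had 91453 and 79502, a ratio of −0.031. H4C7 (122 in DMSO, not well above background in HTE) was at least 1.15-fold lower. H4C9 (1559 and 1524, ratio 0.14) was the 1 H4 gene above 0. Of the 9 H4 genes with a mean level at or above the 75th percentile all were below 0 (median −0.097), the opposite side from the 13 such H2B genes. Among all genes at such levels 4806 of 9169 were below 0. Most of these H4 ratios were smaller than the software's error of 0.20, and they are given as a description.

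The ratio also went with the signal level. The 43 members with a mean level at or above the 75th percentile had a median ratio of 0.17 (25 above 0), and the 21 dimmer members a median of −0.49 (17 below 0). For all genes the corresponding medians were −0.018 (4363 of 9169 above 0) and 0 (6825 of 14583 below 0). The dim median of all genes includes bounds set to 0. It was 0.012 with only genes above background on both arrays. Of the 17 dim members below 0, 4 were bounds, which cannot exceed 0. With only genes above background on both arrays, 13 dim members were below 0 and the dim median was −0.52. Over the 60 members above background on both arrays Pearson's r of the ratio with the mean level was 0.52 and Spearman's rho 0.45, against −0.054 and −0.036 over 21000 genes, as a description of genes that share 2 arrays and, within a family, much of their sequence. The negative control spots had a mean background-subtracted signal of −11.1 on the DMSO array and −21.5 on the HTE array. With normexp correction the dim members had a median of −0.44 with 17 of 21 below 0, and the bright ones 0.13. Normexp also takes off the local background of each spot, so it is no setting without subtraction. What background subtraction contributes to the dim values was not tested. The exceptions among the dim members were H2AC1, H2AC19, H2AC25 and H4C9, which were above 0.

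**Figure D3:**
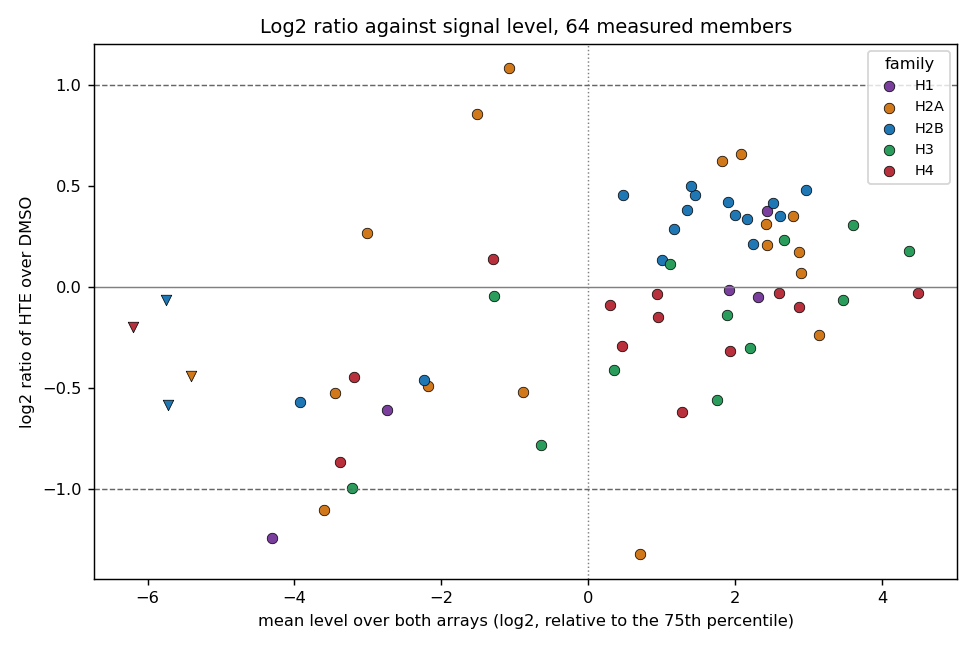
Log2 ratio of HTE over DMSO (y axis) against the mean level over both arrays (x axis, log2 relative to the 75th percentile) for the 64 measured members, coloured by family. Circles are genes above background on both arrays and triangles bounds; dashed lines mark a 2-fold difference. Of the 21 members left of 0, 17 lie below the horizontal line, 4 of them bounds, which cannot lie above it. H2AC20 is the 1 member right of 0 that lies past 2-fold.

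For 9 members 2 probes were kept, and they show how far a value depends on the probe. Their ratios differed by 0.066 to 0.85. Those of H2BC12 (0.35 and 0.27) and H2BC18 (0.21 and 0.15) were close. H2AC17 had 0.21 by its brighter and −0.51 by its dimmer probe, and H3C10 had −0.78 and 0.068, so these genes have no settled direction. H2AC6 had 0.62 and 1.44 and H4C4 −0.29 and −1.01, in each case with the second probe past 2-fold. The dimmer probe of H4C12 gave −0.63 beside −0.32. The second probes of H4C1 and H4C13 were above background on the DMSO array only and gave bounds on the same side as the brighter probe.

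Of 11 head-to-head pairs of an H2A and an H2B gene, with starts 194 to 248 bases apart, 9 were measured for both genes on both arrays. The H2B gene had the higher ratio in 6 and the H2A gene in 3, with a median difference (H2B minus H2A) of 0.28 and a range of −0.84 to 1.24. The signs were equal in 5 pairs and opposite in 4. This split is not settled, because H2AC17 was counted by its brighter probe only and H2BC11 was at −0.036 without scaling. The widest gap was that of H2AC11 (−1.10) and H2BC11 (0.13), whose shared promoter is shown above and holds an octamer and CCAAT boxes. H2AC13 (−0.49) and H2BC13 (0.48), and H2AC14 (−0.24) and H2BC14 (0.42), differed in the same sense, and H2AC25 (0.26) and H2BC26 (−0.57) in the other. H2AC8 (0.66) and H2BC8 (0.38), and H2AC6 (0.62) and H2BC4 (0.50), were both above 0. H2AC20 (−1.32) and H2BC21 (−0.46) were both below.

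**Figure D4:**
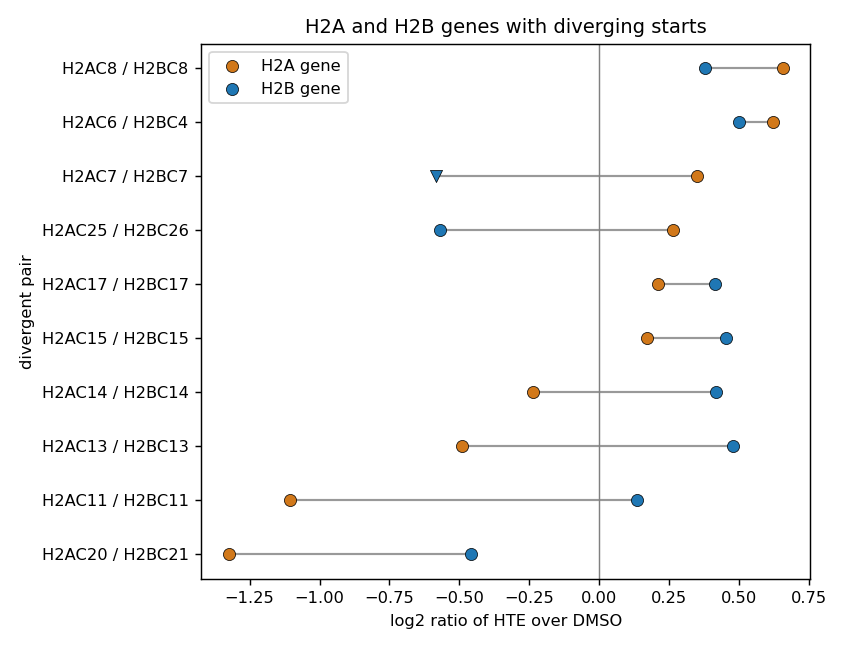
Log2 ratio of HTE over DMSO (x axis) of the H2A gene and the H2B gene of each of the 10 head-to-head pairs with both genes measured (y axis). The triangle is a bound. The H2AC11 and H2BC11 points lie 1.24 apart, and those of H2AC6 and H2BC4 0.12 apart.

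The 6 members known also to make polyadenylated transcripts were looked at as a group. H2AC6, H2BC4, H2BC5, H1-2 and H2BC12 were above 0 (0.35 to 0.62), whereas H2BC21 was at −0.46, and the median was 0.41. None reached 2-fold by its brightest probe, and 3 of the 6 belong to the bright H2B group above.

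Genes that work with the clustered histones were lower more often. All 12 S phase genes measured were below 0, with a median of −0.89 and 5 at least 2-fold lower. RRM2, a subunit of ribonucleotide reductase, had 909 in DMSO and 183 in HTE, a ratio of −2.14. CDC6, which loads the MCM helicase, had −1.77, MCM4 −1.26 and CDC45 −1.16, and RPA2, at −0.33, was the least changed. The clustered histone genes are known to be expressed in the same phase, and their median of −0.034 lay well above that of this list. Relative to the median of all genes, the S phase median was −0.81 under normexp and −0.86 under quantile normalization.

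Among 19 genes of histone mRNA processing and transcription the median was −0.46 and 5 were above 0. SLBP, which binds the stem-loop, had 21145 and 11220, a ratio of −0.74. NPAT, the activator of clustered histone transcription, had −0.20, and POU2F1, which encodes OCT1, −0.56. CCNE2, a cyclin that acts with CDK2 upstream of NPAT, was at least 2-fold lower (5010 and 2149, ratio −1.05), and MIF4GD, a partner of SLBP in translation, was at the cutoff on the other side (2316 and 4115, ratio 1.00). Of 21 histone chaperones measured 17 were below 0, with a median of −0.26. HJURP, the chaperone of CENPA, had −1.43, TONSL −1.16 and CHAF1B, a subunit of chromatin assembly factor 1, −1.13, and CHAF1A of the same complex had −0.93. NAP1L1, at 0.14, had the highest ratio. UBN1 had no probe.

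The replication-independent histones had a median of −0.092 over 11 genes measured, close to that of the clustered ones. H2AX, the H2A variant phosphorylated at DNA breaks, had 26616 in DMSO and 8898 in HTE, a ratio of −1.41. CENPA, the H3 variant of the centromere, had 7130 and 2708, a ratio of −1.23. H1-10, a linker histone, had 2111 and 2711, a ratio of 0.53. A further 7 lay between −0.36 and 0.21, and H3-5 had no probe.

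**Figure D5:**
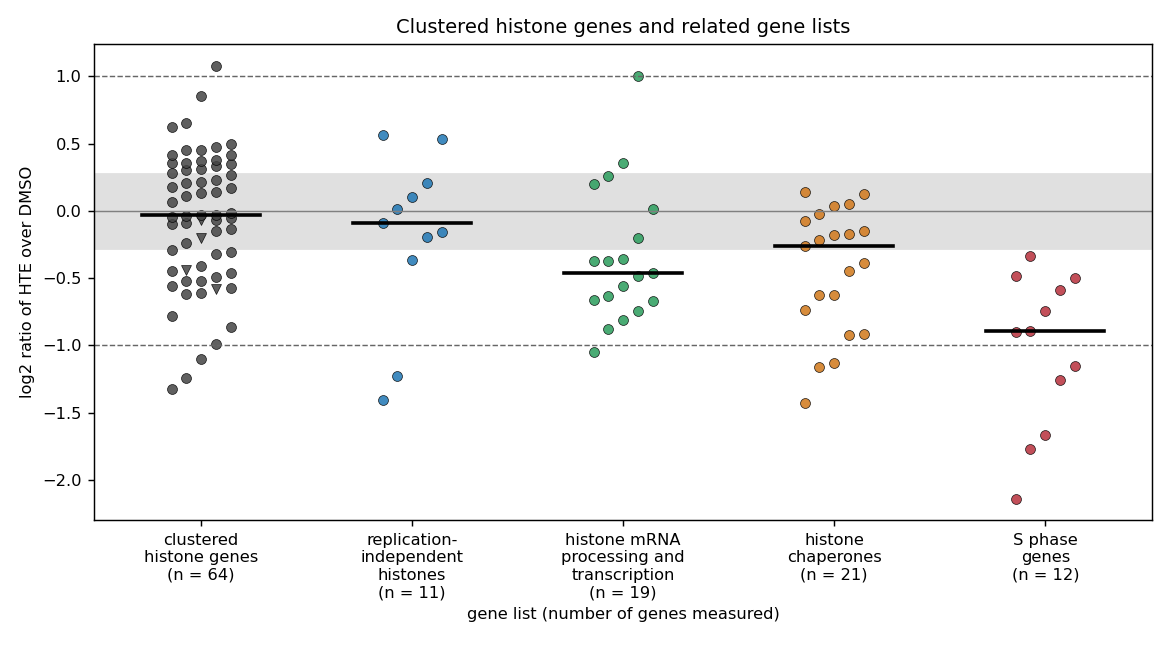
Log2 ratio of HTE over DMSO (y axis) of the 64 measured clustered histone genes and of the genes measured in 4 other lists (x axis). Circles are genes, triangles bounds, thick lines medians, the grey band the quartiles of all genes and dashed lines a 2-fold difference. All 12 S phase genes lie below 0, with a median of −0.89, whereas the clustered histone genes spread to both sides of 0.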

How the data were processed

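The authors deposited the Agilent Feature Extraction output of 2 arrays, 1 per condition. They shared a slide and a scan, and array and treatment cannot be told apart. The deposited intensity values are processed signals, background-subtracted and detrended by that software and not scaled between arrays. The labels name version 10.7 and the file header version 11.5.1.1. The paper's methods name the Agilent Low Input Quick Amp labelling kit, known to prime from poly(A) tails, and a 2-fold cutoff. The background, outlier and saturation flags are the deposited software's own.

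Outlier spots were left out (440 for DMSO and 459 for HTE), log2 was taken, and the 75th percentile of non-control spots was subtracted array by array. Probes with 0.5 or more of their spots flagged well above background on either array were kept. For a probe dim on 1 array a bound was used: its bright value against its own dim value or, if larger, the faintest level flagged well above background there, with 0 where this came to less than 1-fold. Probes were named by RefSeq accession in the GRCh38.p14 gene table (28146 of 50532), 29680 were kept, and the brightest probe stood for a gene. A log2 ratio of at least 1 in size counted as 2-fold. Precision is limited by there being 1 array per condition, and no test was run.

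The members, the gene lists and the alternatives were chosen with earlier results of these data known. Named with values were the members past 2-fold, the largest rise, the largest fall and the brightest probe of each family, members whose probes disagreed, and of each list the genes past 2-fold, the largest rise and fall, SLBP, NPAT and CHAF1A; other members were added after their values were seen. The values of some listed genes are not reported here. Alternatives were normexp (limma 3.58.1, offset 50, on the median signal of each spot), quantile normalization, scaling to the median, to spike-ins or not at all, other filters, all probes of a gene, and cutoffs of 1.5-fold and 3-fold. On simulated data, a copy of the DMSO array with noise of 0.1 and 200 of 23309 genes shifted by 1.5, all 200 were called and no other gene. Only bright genes well above background were shifted, and the noise was below the software's error. This checks the processing steps and cannot speak for dim genes or bounds. The software was Python 3.11.15 (pandas 2.3.3, numpy 2.4.6, matplotlib 3.10.9) and R 4.3.3.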

Additional observations from a re-analysis of the deposited data

How the results depend on the processing

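The median of the clustered histone genes was −0.11 with scaling to the median, −0.20 without scaling and −1.25 with the E1A spike-in probes. The number at least 2-fold lower was 1 with normexp, 5 without scaling, 43 with spike-ins, 7 without the filter on dim probes, 7 when a dim probe kept its own value, 8 at 1.5-fold and 0 at 3-fold. The number at least 2-fold higher was 0 without scaling and with spike-ins, 3 without the filter, 2 with the mean over all probes, 4 at 1.5-fold and 0 at 3-fold. Without scaling the medians of the H2A genes and of the bright members were both −0.0013. With spike-ins they were both −1.05, and those of H2B and of the members with polyadenylated transcripts were −0.86 and −0.80, with H2AC1 at −0.14. These scalings subtract 1 constant from every gene above background on both arrays, so the order of those genes does not change. Among all genes the share of higher genes among those past 2-fold was 63.4%, but 42.2% without scaling, 0.873% with spike-ins and 50.4% when dim probes kept their own value. Keeping outlier spots moved none of the 64 genes, normexp moved 23 and quantile normalization 20, by more than the spot SD of 0.051. No paired analysis was possible because each condition has 1 array, and no array could be left out. When dim probes kept their own value H2AC16, H2BC6, H2BC7 and H4C7 were at −1.22, −1.17, −2.13 and −2.31, and under normexp H1-1 and H2AC11 were at −0.80 and −0.61. The size of differences near the background is not settled by these signals.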
